A study of Mus musculus with 20 samples.

Results

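Time point 7 of a glutamine-cycling experiment in Hepa1-6 cells, a mouse hepatoma line, is described here from the 2 arrays whose titles carry that number, out of 20 arrays of 11 time points. Constant flasks held 4 mM glutamine throughout, and varied flasks were switched between 0 and 4 mM at medium exchanges at the start and after 24, 48 and 72 h of a 96 h course. All flasks were confluent at the start and shared DMEM with 25 mM glucose, a serum replacement and antibiotics. Each array set Cy5-labelled RNA of a varied flask against Cy3-labelled RNA of a constant flask, with no dye swap. At which hour time point 7 fell, and whether the varied flask then held 0 or 4 mM, the labels do not say, nor the meaning of the r that ends the title of the second array. The arrays may be repeat hybridisations, and p-values then measure only technical spread. Of 15968 genes or unnamed probes on the array, 4025 had a value on both arrays, 3585 of them named genes and 440 unnamed probes, and these 4025 are the members described.

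Glutamine feeds the tricarboxylic acid cycle, supplies nitrogen for nucleotides and amino acids, and is exchanged for other amino acids across the cell membrane. Cells that lack an amino acid phosphorylate the initiation factor eIF2, which lowers bulk translation and favours the transcription factor ATF4 and its targets. A related pathway senses unfolded proteins in the endoplasmic reticulum and raises chaperones such as the product of Hspa5.

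Values are log2 ratios set against each array's median, likely varied over constant, since the labels list the varied RNA first. Base 2 is an assumption. As deposited, the medians were 0.32 on the first array and 0.35 on the second, and centring set both to 0, so "lower" below means lower than the median probe. The first array gave a value for 6082 of 17280 probes (35.2%) and the second for 4709 (27.3%), with an SD over probes of 0.451 and 0.418. The number of arrays limits the precision. Ratios carry no levels, so the liver cell identity of the line could not be checked from expression levels. A change in part of the cells of the line and a change in every cell cannot be told apart. Genes were tested with limma in 18 arrays. The second arrays of time points 6 and 10 were left out, as they did not correlate with their partners in earlier work on these data. With the first array of time point 7, their r was 0.00886 and -0.0208. The array of time point 5, which was kept, stood at -0.0405 with that array. A gene is called at a Benjamini-Hochberg adjusted p under 0.05 over all genes tested.

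The pair ranked genes alike, and the largest deviations lay on the low side. Across genes, the arrays correlated with r = 0.689 (Spearman's rho 0.590, 4025 genes, which are not independent replicates). The ratio was above 0 on both arrays for 1601 genes, below 0 on both for 1183, and of opposite sign or 0 for 1241. The median absolute difference between the arrays was 0.24. Both arrays lay below -0.5 for 230 genes and above 0.5 for 91, below -1 for 69 and above 1 for 2. The typical SD of a pair was 0.240 at time point 7, against 0.172 to 0.232 at the 6 other time points with 2 usable arrays. The means of the genes also spread more, with an SD of 0.390 against 0.211 to 0.310 at those time points.

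Of the 4025 genes, 548 were called higher (13.6%) and 501 lower (12.4%) in the varied flasks, with a median log2 ratio of 0.47 and -0.60. The spread in that fit is shared with other time points, whose pairs agreed better. With the pair of time point 7 alone, 203 genes were called higher and 326 lower, and with all 20 arrays 142 and 234. Without the first array the counts were 184 and 303, and without the second 336 and 378. The calls of the first 3 fits coincided for 104 higher and 228 lower genes. Without centring the split became 2338 higher and 218 lower, and medians of gene lists given below lie 0.335 higher (0.385 over all genes).

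**Figure D1:**
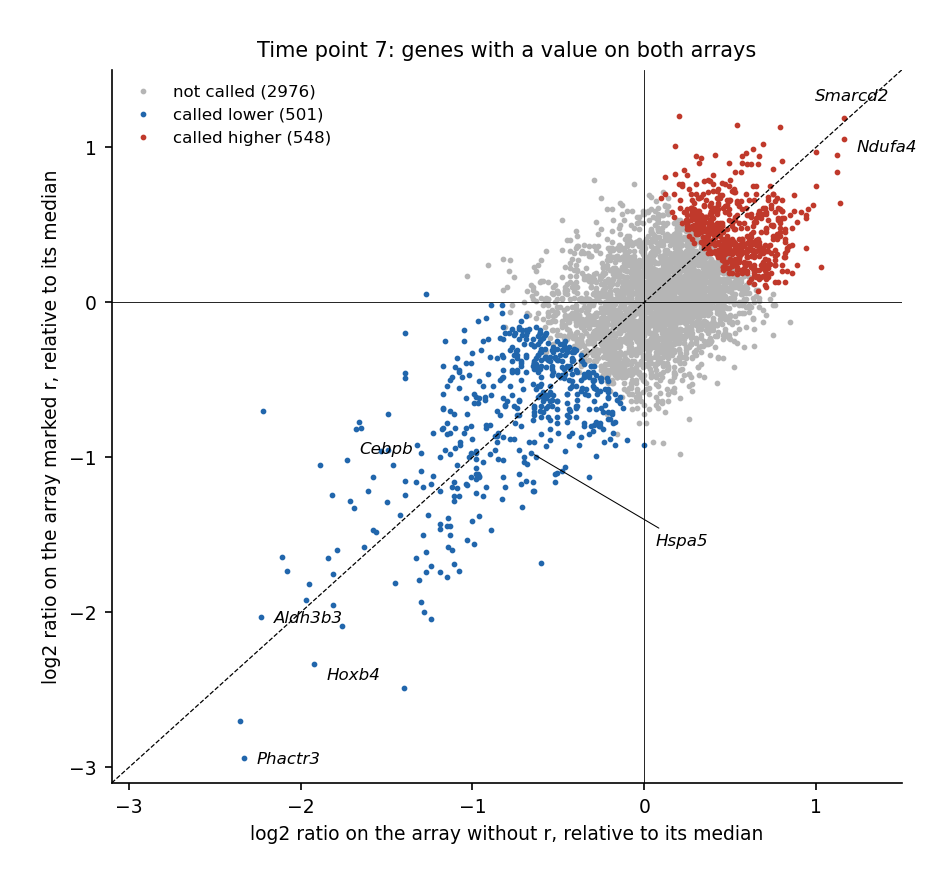
Log2 ratio of each of 4025 genes on the first array (x axis, title without r) and the second array (y axis, title with r) of time point 7, both relative to the array median, with the line of equality dashed. The cloud is centred near 0, and its tail extends to about -3 for Phactr3 but only slightly past 1 for Smarcd2 and Ndufa4.

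The lowest ratio was that of Phactr3, which encodes a regulator of protein phosphatase 1 and actin. Its log2 ratio was -2.33 on the first array and -2.94 on the second (mean -2.64, SE 0.14, adjusted p = 1.2e-12, limma), a 6.21-fold lower level in the varied flasks. The single arrays of time points 1, 2, 3, 4, 8 and 9 lay between -0.56 and 0.42, so both arrays of time point 7 stood clear of that range. Hoxb4, a homeobox transcription factor, gave -1.92 and -2.33 (adjusted p = 4.2e-11). Cnih2, which encodes a cargo receptor and auxiliary subunit of glutamate receptors, gave -2.08 and -1.73 (adjusted p = 4.5e-11). Mtmr9, a member of the myotubularin family of lipid phosphatases that lacks catalytic activity, gave -1.76 and -2.09, but it was low elsewhere too, with a mean of -1.27 at the 6 other time points.

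Some of the lowest spots were rarely measured. Aldh3b3, an aldehyde dehydrogenase, gave -2.23 and -2.03, and Spag16, a protein of the sperm flagellum, gave -1.97 and -1.92. Neither had a value at time points 1 to 4, so neither could be set against the 6 other time points. At time point 6, on its 1 usable array, they stood at -2.29 and -1.62. The uncharacterised gene 0610009B22Rik gave -1.40 and -2.49 and had no value at time points 2 to 4. The other lowest members were unnamed features probe2454, probe17198, probe17156, probe2051 and probe16980, with means of -2.52 to -1.78. Of the 12 lowest, Aldh3b3 lost its call with all 20 arrays (adjusted p = 0.077).

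**Figure D2:**
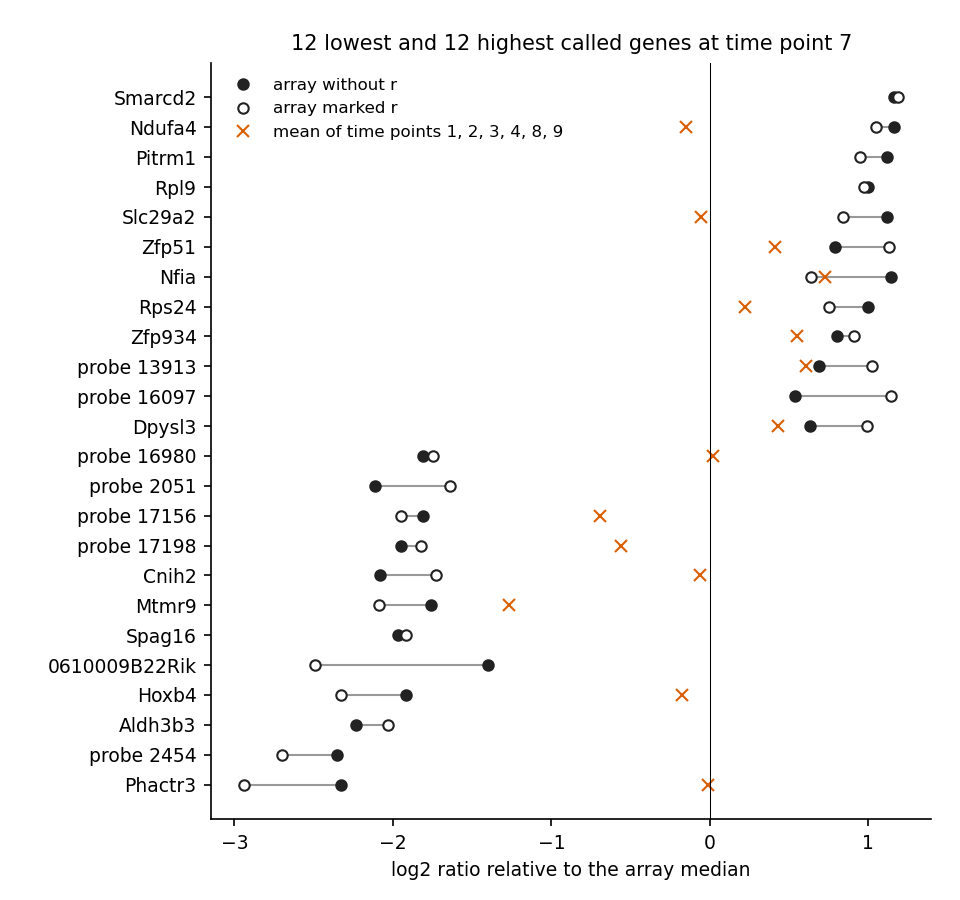
The 12 lowest and 12 highest called genes of time point 7, with the log2 ratio on the first array (filled circle) and the second array (open circle), and where all 6 were measured the mean of time points 1, 2, 3, 4, 8 and 9 (orange cross). Low genes such as Phactr3, Hoxb4 and Cnih2 lie far from their crosses, whereas Nfia and probe13913 lie close to theirs.

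On the high side the values were smaller. Smarcd2, a subunit of the SWI/SNF chromatin remodelling complex, gave 1.16 and 1.19 (mean 1.18, SE 0.14, adjusted p = 1.7e-06), a 2.26-fold higher level. Ndufa4, a subunit assigned to complex IV of the respiratory chain, gave 1.16 and 1.05 (adjusted p = 5.1e-06). Pitrm1, the mitochondrial protease that degrades presequence peptides, gave 1.12 and 0.95. Slc29a2, an equilibrative nucleoside transporter, gave 1.12 and 0.84. Rpl9, of the large ribosomal subunit, gave 1.00 and 0.97, and Rps24, of the small subunit, gave 1.00 and 0.75. The choice of these 6 genes required a call in the fit to 18 arrays and the same sign on both arrays. They were also called in the fits to 20 arrays and to the pair alone.

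Several other high ratios were not particular to time point 7. Nfia, a nuclear factor I transcription factor, gave 1.14 and 0.64 but had a mean of 0.72 at the 6 other time points, a difference of 0.17 (adjusted p = 0.54). The zinc finger gene Zfp934 gave 0.80 and 0.91 against 0.55 elsewhere, and Dpysl3, a cytoskeletal regulator of growing axons, gave 0.63 and 0.99 against 0.43. Neither difference was called (adjusted p = 0.18 and 0.085). Zfp51 gave 0.79 and 1.13 against 0.41, a difference of 0.55 that was called (adjusted p = 0.0062). Without a dye swap, uneven dye uptake by a gene cannot be told apart from a lasting difference between the flasks, and both cancel in a difference between time points.

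Against the mean of time points 1, 2, 3, 4, 8 and 9, time point 7 was higher in 124 of 3440 genes (3.6%) and lower in 326 (9.48%). Of the genes called lower by ratio, 391 could be tested and 252 were also lower than at the other time points. Of those called higher, 500 could be tested and 61 were also higher. Over all 3440 genes, time point 7 lay below each of the 6 other time points for 821 and above each for 660. Without the first array 74 genes were higher and 225 lower, and without the second 69 and 260. This test takes its error from pairs of arrays. With the means of all 11 time points as samples instead, which counts the variation between time points as error, 21 genes were lower and 0 higher (limma, 184 and 56 at an unadjusted p under 0.05).

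**Figure D3:**
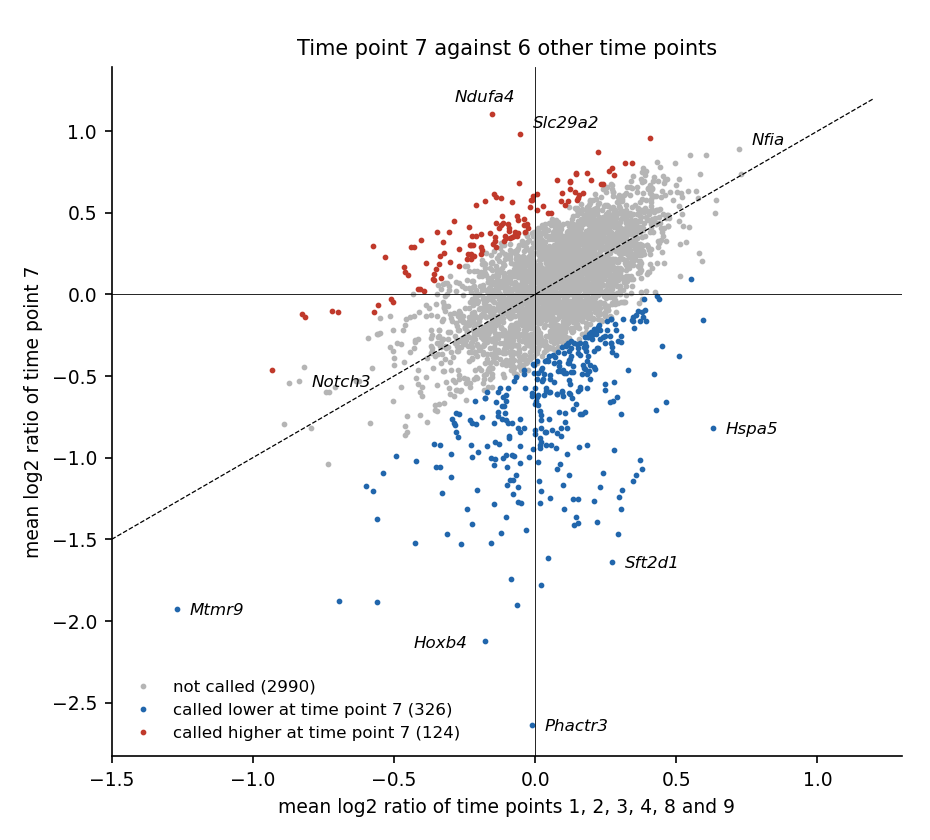
Mean log2 ratio at time point 7 (y axis) against the mean over time points 1, 2, 3, 4, 8 and 9 (x axis) for 3440 genes, coloured by the limma call of the difference, with the line of equality dashed. Genes called lower, in blue, reach far below the line at x values near 0, as for Phactr3, and Hspa5 crosses from a positive mean elsewhere to a negative ratio.

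Among the 10 largest drops against the other time points, Phactr3 was 2.63 below the others on the log2 scale (-2.63, SE 0.15, adjusted p = 1.6e-27) and Hoxb4 stood at -1.95. Sft2d1, a Golgi transport protein, gave -1.24 and -2.04 against 0.27 elsewhere, a difference of -1.91. Necap2, an adaptor of clathrin-coated vesicles, gave -1.24 and -1.70 against 0.29, a difference of -1.76. Both genes had been above 0 on average at the other time points and were low on both arrays here.

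Lmnb1, which encodes lamin B1 of the nuclear envelope, gave -1.50 and -1.29 against 0.22 elsewhere, a difference of -1.62 (SE 0.15, adjusted p = 2.2e-15). Map3k3, a kinase upstream of MAP kinases, gave -1.30 and -1.93 against 0.05, a difference of -1.66. Mapre3, a protein of growing microtubule ends, gave -1.13 and -1.50 against 0.31, a difference of -1.62. Rangrf, a Ran-binding nucleotide release factor, gave -1.84 and -1.65 against -0.08, a difference of -1.66. When time-point means were taken as samples, Phactr3, Sft2d1, Cnih2, Necap2, probe16980 and probe4216 kept their calls among the genes named here, while Hoxb4, Lmnb1, Map3k3, Mapre3 and Rangrf lost theirs.

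The largest gains were Ndufa4, with a difference of 1.26 (adjusted p = 6.6e-10) that rests on 1 array at each other time point, and Slc29a2, with 1.03 (adjusted p = 2e-07). Slc29a2 was also high at time points 5 (1.44) and 6 (0.85), on 1 usable array each, which this comparison leaves out. Atg16l2, an autophagy protein, gave 0.22 and 0.37 here and -0.57 elsewhere, so its difference of 0.87 came from low values at the other time points. Likewise, Csnk1g2, a casein kinase, gave 0.12 and 0.34 against -0.53, and Kcnj4, an inward-rectifying potassium channel, gave 0.35 and 0.32 against -0.41. Ctsa, the lysosomal protective protein cathepsin A, rose from -0.18 to 0.49 and 0.65. Hoxb1, a homeobox factor, and Mterf4, a factor of mitochondrial ribosome assembly, gave differences of 0.75 and 0.74. The unnamed feature probe5765 gave 0.76 and the uncharacterised gene 4930505O20Rik 0.74.

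Part of the low side was shared with the neighbouring time point 6. Among the 326 genes lower at time point 7, 272 had a value on the 1 usable array of time point 6, with a median of -0.30, and 198 were below 0 and 71 above. Over all tested genes, 1400 of 2888 were below 0 at time point 6, with a median of 0.01. The same 326 genes had medians of 0.10 to 0.12 at time points 1 to 4, -0.63 at time point 7, -0.06 at time point 8 and 0.06 at time point 9. Over all tested genes the medians were 0.085 to 0.109 at time points 1 to 4 and 0.07 at time point 7. At time points 8 and 9 they were 0.04 and 0.075. The 326 genes were chosen by the contrast of time point 7 with these time points, so their medians there follow from that choice. Time point 6 was not part of it. Among the 10 largest drops, Lmnb1 stood at -1.36, Rangrf at -1.37, Map3k3 at -1.31 and Phactr3 at -1.08 on that array of time point 6. Hoxb4 (-0.57), Mapre3 (-0.53), Cnih2 (-0.44), Necap2 (-0.23) and Sft2d1 (-0.06) were less low there, and probe16980 had no value. The 124 higher genes had a median of 0.03 at time point 6 and 0.38 at time point 7. As whole profiles, the arrays of time point 7 correlated with that array at r = 0.404 and 0.336, no higher than their best match among all other arrays (0.463 with an array of time point 4 and 0.409 with one of time point 8). With 1 array at time point 6, no test of it was made.

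**Figure D4:**
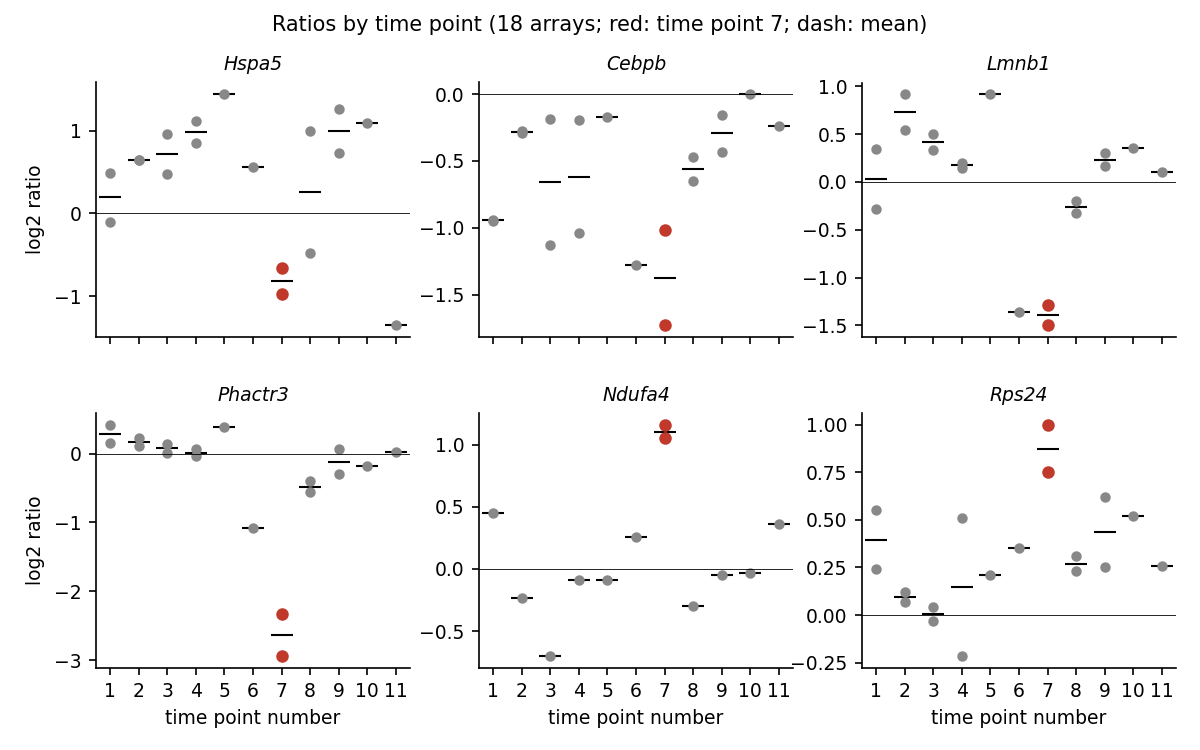
Log2 ratio by time point number for 6 genes on 18 arrays, 1 point per array, with time point 7 in red and a dash at each mean. Hspa5, Cebpb, Lmnb1 and Phactr3 are low at time point 7, where Lmnb1 already stands at -1.36 at time point 6, and Ndufa4 and Rps24 are high.

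Hspa5, which encodes the chief chaperone of the endoplasmic reticulum (BiP), had a negative mean ratio at time point 7 and a positive one at the 6 other time points. Its ratio was -0.66 and -0.97 (mean -0.815, SE 0.21, adjusted p = 0.0066), whereas the means at the 6 other time points lay between 0.20 and 0.99. Single arrays were negative there too, at -0.48 beside 1.00 at time point 8 and at -0.10 beside 0.49 at time point 1. The difference was -1.45 (SE 0.18, adjusted p = 1e-10), and both arrays lay below all 12 arrays of those time points. The ratio call was lost with all 20 arrays (adjusted p = 0.097) and without the second array. Time point 11, with 1 array, stood even lower at -1.35.

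The promoters of Hspa5 and Canx are shown because both hold the same endoplasmic reticulum stress response element (ERSE) while their ratios lay on opposite sides of 0, and that of Herpud1 for an ATF4-type element. They come from RefSeq (GRCm38.p6), run up to the gene's start, and carry the match in capitals. Hspa5 lies at chr2:34771840-34772089 (+), Canx at chr11:50325674-50325923 (-) and Herpud1 at chr8:94386179-94386428 (+).
Hspa5: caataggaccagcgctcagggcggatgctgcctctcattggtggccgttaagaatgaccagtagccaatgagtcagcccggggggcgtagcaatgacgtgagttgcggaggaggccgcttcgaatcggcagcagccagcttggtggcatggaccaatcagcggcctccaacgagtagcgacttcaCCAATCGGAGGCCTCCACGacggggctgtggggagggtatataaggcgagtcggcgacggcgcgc
Canx: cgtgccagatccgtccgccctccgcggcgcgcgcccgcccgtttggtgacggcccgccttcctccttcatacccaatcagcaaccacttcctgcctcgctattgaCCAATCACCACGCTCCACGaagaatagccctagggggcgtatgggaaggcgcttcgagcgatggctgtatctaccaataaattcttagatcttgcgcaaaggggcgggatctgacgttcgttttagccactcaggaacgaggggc
Herpud1: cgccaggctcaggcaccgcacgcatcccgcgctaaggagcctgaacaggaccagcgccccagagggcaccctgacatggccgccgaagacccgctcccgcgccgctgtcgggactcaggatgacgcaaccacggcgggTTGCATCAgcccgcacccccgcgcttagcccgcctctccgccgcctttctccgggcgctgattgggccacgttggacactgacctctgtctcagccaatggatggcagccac

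The ERSE was searched as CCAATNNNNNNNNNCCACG on both strands, in windows of 300 bases that run from 250 before to 50 after the start. It was found in 39 of 32851 such windows (0.119%) and in 5 of the 8 measured endoplasmic reticulum genes with a window, namely Hspa5, Canx, Calr, Pdia6 and Creld2. Their mean ratios ranged from -0.815 for Hspa5 to 0.38 for Canx, and only that of Hspa5 was called. Whether carriers of the element moved together was not tested. The ATF4-type core TGATGNAA was found in 1304 windows (3.97%) and in 1 of the 9 measured genes of the ATF4 list with a window, Herpud1. Other forms or spacings of either element were not searched, so a promoter without a match, such as that of Herpud1 for the ERSE, may still hold one. A match is a description of the letters only.

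Of 10 measured genes for chaperones and folding in the endoplasmic reticulum, 1 was called higher (10%) and 2 lower (20%). Over all genes the shares were 13.6% and 12.4%. By the difference from the other time points they were 3.6% and 9.48%. Counts in each list below stand beside these shares. The median was -0.17 against 0.05 over all genes. The lower genes were Hspa5 and Herpud1, a membrane protein of the degradation pathway, which gave -0.23 and -0.66 (adjusted p = 0.04). Sec61b, a subunit of the translocation channel, was higher at 0.57 and 0.90 (adjusted p = 0.00024) and also higher than at the other time points (0.59, adjusted p = 0.0024). Canx, which encodes the lectin chaperone calnexin, had a mean of 0.38 and was not called (adjusted p = 0.055), and its partner calreticulin (Calr) had a mean of -0.345. Ern2, a sensor of the unfolded protein response, was not called by ratio but was lower than at the other time points, from 0.44 to -0.03.

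Of 10 measured genes of the integrated stress response, 0 were called higher and 3 lower (30%, against 12.4% of all genes). The median was -0.03 (0.05 when centred within blocks of neighbouring probe numbers). Cebpb, a bZIP transcription factor of stress and liver gene control, gave -1.73 and -1.02 (mean -1.38, SE 0.19, adjusted p = 5.1e-06), a 2.59-fold lower level, and lay below the others by a difference of -0.81 (adjusted p = 1e-04), though that difference was not called without the first array. Ddit3, the stress factor CHOP, gave 0.04 and -0.36, which was not called (adjusted p = 0.45). Its difference of -0.55 from a mean of 0.39 elsewhere was called (adjusted p = 0.0063), but not without the second array. Shmt2, a mitochondrial serine hydroxymethyltransferase, gave -0.62 and -0.22. Sesn2, an inhibitor of mTORC1 that senses leucine, had a mean of 0.29 and Slc7a5, a transporter of large neutral amino acids, 0.26, and neither was called.

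The genes that handle glutamine were poorly covered. Asns and Glul, the synthetases of asparagine and glutamine, had no value on any array. Slc38a2, a glutamine importer induced by amino acid shortage, had a value on the first array only (0.08). Slc1a5, a glutamine exchanger, gave -0.41 and 0.07, so the arrays disagreed in sign and it was not called (adjusted p = 0.4). Of 6 measured genes of glutamine and glutamate metabolism, 1 was higher and 1 lower, with a median of 0.14. Gad1, glutamate decarboxylase, gave 0.65 and 0.37, and Shmt2 was the lower one. Got1, the cytosolic aspartate aminotransferase, was not called by ratio (-0.17 and -0.46) but lay -0.49 from the other time points (adjusted p = 0.017).

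Of 8 measured amino acid transporters, 0 were higher and 2 lower (25%, against 12.4% of all genes), with a median of -0.13. Slc38a3, a system N glutamine transporter of hepatocytes, gave -0.77 and -0.60 (mean -0.685, adjusted p = 0.00067) and was called in all 3 fits. Slc25a12, the mitochondrial aspartate-glutamate carrier, gave -0.61 and -0.54 and lay -0.76 from the other time points (adjusted p = 7.8e-05). For both genes the arrays lay close together, although Slc25a12 was not called without the first array or with all 20.

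Of 41 measured cytosolic ribosomal proteins, 14 were called higher (34.1%, against 13.6% of all genes) and 2 lower (4.88%, against 12.4%), with a median of 0.285 against 0.05 over all genes, and 28 were above 0 on both arrays and 4 below. On the first array their median was 0.39 and on the second 0.13. Rps24 and Rpl9 led, followed by Rpl22l1 (0.65 and 0.75), Rps3 (0.74 and 0.61) and Rps23 (0.80 and 0.54). Rpl14, of the large subunit, went the other way at -0.60 and -0.24. In 39 that could be set against the other time points, 7 were higher and 1 lower, where 3.6% and 9.48% of all genes were called, with a median difference of 0.24. Across the 3 fits, 4 of the 14 stayed called. Of 20 measured mitochondrial ribosomal proteins, 1 was higher and 2 lower, with a median of 0.06, and the lowest was Mrpl34 at -0.39 and -0.59.

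**Figure D5:**
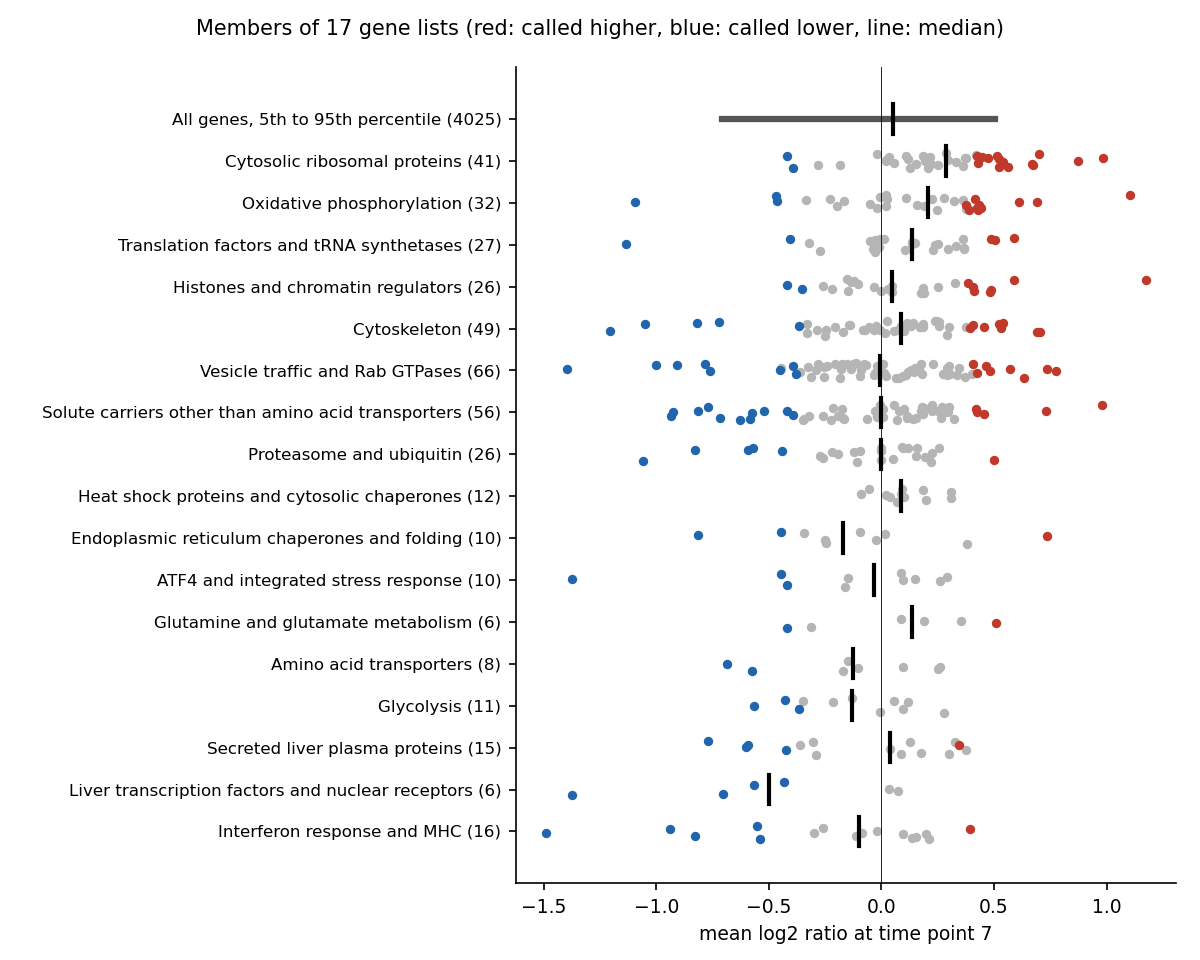
Mean log2 ratio at time point 7 of the measured members of 17 gene lists, 1 point per gene, red where called higher and blue where called lower, with a black line at each list's median and the number measured in brackets. The top bar spans the middle of all 4025 genes (-0.709 to 0.505, the tails left out at both ends), and ribosomal proteins sit right of its median while liver transcription factors sit left.

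Of 27 measured factors and tRNA synthetases, 3 were higher (11.1%, against 13.6% of all genes) and 2 lower (7.41%, against 12.4%), with a median of 0.14. Eif2s2, the beta subunit of eIF2, which brings the initiator tRNA to the ribosome, gave -1.30 and -0.97 (adjusted p = 2.3e-06) and lay -1.06 from the other time points. Eif4e, the cap-binding protein, gave -0.51 and -0.30. On the other side stood Ncl, the nucleolar protein nucleolin (0.77 and 0.41), Eif4g2 (0.67 and 0.34) and Eif5a (0.67 and 0.30), each larger on the first array.

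Of 32 measured subunits of the respiratory chain and ATP synthase, 10 were higher (31.2%, against 13.6% of all genes) and 3 lower (9.38%, against 12.4%), with a median of 0.21. Besides Ndufa4, the higher genes included Cox6c, of complex IV (0.72 and 0.66), and Cox7a2l, which joins complexes into supercomplexes (0.40 and 0.82), as well as 6 subunits of ATP synthase between 0.375 and 0.44. Of the 10, 3 stayed called across the 3 fits, and the ATP synthase subunits were not among them. Ndufb5, of complex I, gave -0.94 and -1.25 (adjusted p = 4.1e-07), and its difference from the other time points was -1.33 (adjusted p = 2.4e-12). The complex I genes Ndufc2 and Ndufs8 were lower too, at -0.47 each on average, while Ndufa12 of the same complex was higher at 0.43. In 23 subunits set against the other time points, 5 were higher and 2 lower, where 3.6% and 9.48% of all genes were called.

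Of 15 measured genes of the tricarboxylic acid cycle, 1 was higher and 1 lower, with a median of 0.2. Idh2, the mitochondrial NADP-dependent isocitrate dehydrogenase, gave -0.62 and -0.45 and lay -0.60 from the other time points (adjusted p = 0.0024). Pcx, pyruvate carboxylase, which replenishes the cycle from pyruvate, gave 0.22 and 0.76, but not a called difference (adjusted p = 0.38). In fatty acid oxidation, 1 of 9 measured genes was higher (11.1%, against 13.6% of all genes) and 3 lower (33.3%, against 12.4%), with a median of -0.075. Acaa1a, the peroxisomal thiolase, gave -0.65 and -1.16 (adjusted p = 2.5e-05), whereas Ehhadh, the bifunctional enzyme of the same organelle, gave 0.51 on both arrays. Of 7 measured genes of fatty acid and triglyceride synthesis, 1 was higher, the lipid droplet enzyme Pnpla3 (0.72 and 0.68), and 0 lower. Ebp, the only measured gene of cholesterol synthesis, had a mean of 0.13. Among 3 of purine and pyrimidine synthesis, Dut, the dUTPase, was higher (0.32 and 0.54).

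Of 11 measured glycolytic genes, 0 were higher and 3 lower (27.3%, against 12.4% of all genes), with a median of -0.13. The lower ones were Pfkl, the liver phosphofructokinase (-0.24 and -0.90), Aldoc (-0.44 and -0.42) and Eno3 (-0.44 and -0.29). Against the other time points, 1 of 10 was higher and 0 lower, with a median difference of 0.15, and the higher one was Tpi1, triosephosphate isomerase, at 0.10 against -0.36. Of 9 measured hypoxia response genes, 1 was higher and 1 lower, the oxygen sensors Egln1 (0.39 and 0.58) and Egln3 (-0.42 and -0.32). Of 12 heat shock proteins and cytosolic chaperones, 0 were called in either direction, and their means lay between -0.09 and 0.31.

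Of 15 measured antioxidant enzymes, 2 were higher and 2 lower (13.3% each, near the 13.6% and 12.4% of all genes), with a median of 0.155. Gpx3, the secreted glutathione peroxidase, gave -1.13 and -0.98 (adjusted p = 8.7e-06), and Gsto1, an omega-class glutathione transferase, gave -0.74 and -0.73. The peroxiredoxins Prdx1 (0.30 and 0.56) and Prdx2 (0.46 and 0.21) were the higher ones, and neither kept its call without either array. Of 26 measured genes of the proteasome and ubiquitin, 1 was higher (3.85%, against 13.6% of all genes) and 5 lower (19.2%, against 12.4%). The median was 0. Uchl1, a ubiquitin hydrolase of neurons and tumours, gave -0.98 and -1.14, and Psmb9, an immunoproteasome subunit, gave -1.04 and -0.62. Psma2, of the core particle, was higher at 0.53 and 0.47.

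Of 6 measured transcription factors and nuclear receptors of the liver, 4 were called lower (66.7%, against 12.4% of all genes) and 0 higher. The median was -0.5, which stayed negative without centring (-0.165). Besides Cebpb, the lower ones were Nr1i2, the xenobiotic receptor PXR (-0.65 and -0.76), Foxa1, a pioneer factor of liver development (-0.55 and -0.58), and Cebpa, a factor of hepatocyte differentiation (-0.52 and -0.35). In all 4 both arrays were below 0. Hnf4a and Cebpd had means of 0.035 and 0.075. Of 5 tested against the other time points, only Cebpb was lower, and the differences of Foxa1 and Cebpa missed the threshold (adjusted p = 0.058 and 0.067). Nr1i2 had no value at time point 8 and was not tested. It was low elsewhere too, with means of -0.95 to -0.615 at time points 1 to 4 and -0.435 at time point 9.

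Secreted plasma proteins gave 1 higher (6.67%, against 13.6% of all genes) and 4 lower (26.7%, against 12.4%) of 15 measured. Their median was 0.04 (-0.0075 when centred within blocks). Cp, the copper-binding ferroxidase ceruloplasmin, gave -0.64 and -0.90 (adjusted p = 0.00013) and Hp, haptoglobin, gave -0.59 and -0.61 (adjusted p = 0.00087). Both also lay below the other time points, by differences of -0.79 and -0.70. Vtn, vitronectin, gave -0.74 and -0.45. Alb, serum albumin, gave -0.53 and -0.32 (adjusted p = 0.039), a call that was lost without either array, and Apoc3, an apolipoprotein, was higher at 0.46 and 0.23. Neither was particular to time point 7. Alb lay between -0.95 and -0.37 at every time point with a value. Apoc3 had a mean of 0.31 at the 6 other time points, a difference of 0.03 that was not called (limma adjusted p = 0.93). In the drug-handling group, 2 of 14 were higher, led by the oestrogen sulfotransferase Sult1e1 (0.67 and 0.94), and 1 lower, Ugt2b1 (-0.44 and -0.69).

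Markers of other liver cell types were checked beside these values. Of 5 measured stellate cell or fibroblast markers, 3 were lower (60%, against 12.4% of all genes) and 0 higher. The median was -0.405 (-0.07 without centring). Vim, the intermediate filament vimentin, gave -0.76 and -0.88, Acta2, smooth muscle actin, gave -0.82 and -0.62, and Col1a1, a collagen chain, gave -0.30 and -0.51. Vim and Acta2 were also lower than at the other time points, by differences of -0.78 and -0.81. Col1a1 could not be tested, and stood at -0.61, -0.78 and -0.14 at time points 1, 3 and 8. Of 5 hepatocyte markers, 1 was higher and 1 lower, Apoc3 and Alb, whose values elsewhere are given above. Of 3 macrophage markers 1 was higher, Aif1 at 0.61 and 0.66, which stood at 0.57 elsewhere. Of 3 cholangiocyte markers 1 was higher, Krt7 at 0.35 and 0.46, and of 2 endothelial markers 0 were called. The flasks held 1 hepatoma line, so the ratios are those of these genes in that line. Whether any other cell type was present was not tested.

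Of 49 measured cytoskeletal genes, 8 were higher (16.3%) and 5 lower (10.2%), near the 13.6% and 12.4% of all genes, with a median of 0.085. Among the lower ones, Krt76, a keratin, gave -1.19 and -1.22 (adjusted p = 6.1e-07) and Acta1, skeletal muscle actin, gave -0.83 and -1.27, beside Vim and Acta2. Among the higher ones, the tubulins Tuba4a (0.85 and 0.56), Tubb2b (0.63 and 0.75) and Tubb3 (0.77 and 0.31) were joined by Cfl2, a cofilin that severs actin (0.67 and 0.37), and Myh11, a myosin heavy chain (0.55 and 0.51). None of these 5 differed from the other time points by the test. In the matrix group, 3 of 29 were higher and 4 lower, with a median of -0.07 (0.01 when centred within blocks). Lamb3, a laminin chain, gave -1.79 and -1.60 (adjusted p = 1.6e-08), and Col5a1, a fibrillar collagen chain, gave -1.58 and -1.13 (adjusted p = 6.1e-07). Both lacked values at some of the other time points, so their difference was not tested.

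Of 9 measured MAP kinases and phosphatases, 2 were higher and 1 lower, Map3k3. Of 6 immediate early genes, 1 was lower and 0 higher: Jun, a subunit of the AP-1 factor, gave -0.98 and -0.97 (adjusted p = 8.4e-06) and lay -0.68 from the other time points, while Fos stood at -0.02. Of 25 genes of Notch, Wnt, TGF-beta and Hedgehog signalling, 2 were higher and 3 lower, with a median of 0.105 (-0.05 when centred within blocks). Tgfb2, a growth factor of the TGF-beta family, gave -0.72 and -1.17 and had lain near 0 elsewhere (-0.01), whereas Notch3, a receptor, gave -0.39 and -0.67 and had been lower still elsewhere (-0.84). Of 10 genes of insulin, mTOR and AMPK signalling, 2 were lower, Foxo1 and the kinase subunit Prkaa2, and 0 higher, with a median of -0.27 (-0.0875 when centred within blocks and 0.06 without centring) and 7 below 0 on both arrays.

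Of 16 measured interferon response and MHC genes, 1 was higher (6.25%, against 13.6% of all genes) and 5 lower (31.25%, against 12.4%). The median was -0.10. H2-Ab1, an MHC class II chain, gave -1.33 and -1.65 (adjusted p = 1.1e-07), and Oas1b, of the oligoadenylate synthetase family, gave -0.90 and -0.98 (adjusted p = 2.1e-05). H2-Ob, another class II chain, was the higher one at 0.47 and 0.32. Among 6 acute phase genes and cytokines, Csf1, the macrophage growth factor, was higher (0.37 and 0.47) and Hp lower.

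In vesicle traffic, 8 of 66 measured genes were higher and 8 lower (12.1% each, near the 13.6% and 12.4% of all genes), with a median of -0.01 (0.02 when centred within blocks). Rab5c, a GTPase of early endosomes, gave -1.29 and -1.50 (adjusted p = 9.7e-08), Ap2m1, of the clathrin adaptor at the cell surface, gave -0.87 and -0.95, and Sec63, a partner of the translocation channel, gave -1.15 and -0.85. Sec11a, the signal peptidase subunit, gave 0.66 and 0.89. Copb2, a coat protein of Golgi vesicles, gave only -0.17 and -0.59 but had been at 0.51 elsewhere, a difference of -0.89 (adjusted p = 1.5e-06).

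Of 56 measured solute carriers outside amino acid transport, 5 were higher (8.93%) and 11 lower (19.6%), against 13.6% and 12.4% of all genes, with a median of 0. Against the other time points, 2 of 53 were higher and 8 lower, where 3.6% and 9.48% of all genes were called. Slc5a8, a sodium-coupled monocarboxylate transporter, gave -0.65 and -1.22 against 0.16 elsewhere, Slc12a8 gave -1.04 and -0.81, Slc44a4, a choline-like transporter, gave -0.52 and -1.11, and Slc39a1, a zinc importer, gave -0.93 and -0.61. Slc25a26, the mitochondrial carrier of S-adenosylmethionine, rose with Slc29a2, at 0.80 and 0.66. Of 14 lysosomal, proton pump and autophagy genes, 2 were higher, Ctsa and the pump subunit Atp6v0e2 (0.27 and 0.53), and 0 lower, with a median of -0.09 (0.05 when centred within blocks).

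In the nucleus, 7 of 26 measured histones and chromatin regulators were higher (26.9%, against 13.6% of all genes) and 2 lower (7.69%, against 12.4%). The median was 0.045 (0.145 when centred within blocks), and Smarcd2 was followed by the demethylase Kdm7a (0.75 and 0.43). None of the 22 that could be set against the other time points was higher, and 1 was lower. Of 22 splicing and RNA-binding factors, 3 were higher, led by Hnrnpm (0.91 and 0.58), and 1 lower, Sf3b5 (-0.17 and -0.77). Of 19 cell cycle and replication genes, 2 were higher and 2 lower, with a median of 0.135. Ndc80, of the kinetochore (0.73 and 0.75), and Cit, the kinase of cytokinesis (-0.99 and -0.65), had like values elsewhere (0.58 and -0.79), and Cdk1, the mitotic kinase, was lower at -0.46 and -0.34. Of 11 apoptosis genes 1 was higher, the adaptor Tradd, and of 3 p53 targets 0 were called. Of the 36 lists with 5 or more measured members, 14 had a median below 0, and 2 of these stayed below 0 without centring.

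The arrays parted most on 4 features. The unnamed feature probe4216 gave -2.22 and -0.70, Npas3, a neuronal bHLH factor, gave -1.27 and 0.05, Ndrg2 gave -1.03 and 0.17, and Ssbp2 gave -1.39 and -0.20. In each of these the first array was the lower one. For Npas3 the values came from different probes, as for 6 genes in all. Different probes of a gene agreed less than the arrays did: over 84 genes with 2 or more probes, the first 2 probes correlated at r = 0.138, while the first probe correlated between arrays at r = 0.722. For Dnaja3, a mitochondrial cochaperone, a probe gave -1.48 and -1.37 and another 0.20 and -0.08. A single-probe value thus describes its spot. Repeated spots shifted between the arrays for some genes and not for others: 16 spots of Gapdh averaged 0.04 (SD 0.16) on the first array and -0.30 (SD 0.11) on the second, whereas 11 spots of Rpl5 averaged 0.48 (SD 0.23) and 0.41 (SD 0.11).

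Over 32 blocks of neighbouring probe numbers, block medians ran from -0.21 to 0.25 and took up 10.4% of the variance. Of 105 probes below -1, 13 lay in block 28, of 163 measured there, and 10 in block 32, which had the lowest block median. Counting these, 29 blocks held at least 1. The 8 unnamed probes that sat at the places in their blocks where other blocks repeat a named gene were all low at time point 7, with means between -1.78 and -0.735. All 8 lay in blocks 27, 28, 31 and 32. On the 12 arrays of the 6 other time points the same probes averaged between -0.05 and 0.30.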

How the data were processed

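Spotted 2-colour arrays were read from the authors' deposited table, 1 column per array, whose values were taken as log2 ratios; base, normalization, image analysis and the rule for blank spots are not given in the sources used here. Gene symbols came from the platform annotation (14718 of 17280 probes, 14445 of them matched in RefSeq's GRCm38.p6 table, 0 changed). Each array was centred on its median and probes of a symbol were averaged. In R 4.3.3 with limma 3.58.1, a mean per time point was fitted to 18 arrays. The time point 7 mean was tested against 0, and against the mean of time points 1, 2, 3, 4, 8 and 9, with Benjamini-Hochberg adjustment over all genes (tested on simulated data). Named genes are the 12 highest and 12 lowest called, the 10 highest and 10 lowest called differences, up to 4 called members of each of 42 lists, the 4 with the largest disagreement, and a fixed few; others named were chosen after their values were seen. Members and lists were chosen with earlier results of these data known. Alternatives covered arrays, centring, scale, probes, moderation, pairing and left-out replicates.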

Additional observations from a re-analysis of the deposited data

Results flagged for a closer look

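Time point 7 differed from the mean of time points 1, 2, 3, 4, 8 and 9 by the limma test of the difference itself in 124 genes that were higher and 326 that were lower. The 10 largest differences on the low side, on the log2 scale, were those of Phactr3 (-2.63), Hoxb4 (-1.95), Sft2d1 (-1.91), Cnih2 (-1.84), probe16980 (-1.80), Necap2 (-1.76), Map3k3 (-1.66), Rangrf (-1.66), Mapre3 (-1.62) and Lmnb1 (-1.62). On the high side they were those of Ndufa4 (1.26), Slc29a2 (1.03), Atg16l2 (0.87), Csnk1g2 (0.76), probe5765 (0.76), Hoxb1 (0.75), Ctsa (0.75), Mterf4 (0.74), Kcnj4 (0.74) and 4930505O20Rik (0.74).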

How the results depend on the processing

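The count of genes higher and lower by ratio, 548 and 501, moved to 142 and 234 with all 20 arrays, to 203 and 326 with the pair alone, and to 2338 and 218 without centring. The higher count fell to 322 with arrays scaled to equal spread. Leaving out 1 array of time point 7 gave 184 (first left out) to 336 higher and 303 to 378 lower. With the sign of the second array turned, as if its dyes were swapped, 0 genes were called either way (limma, 64 higher and 50 lower at an unadjusted p under 0.05). As the arrays correlated, turning 1 sign cancels what they share, so this count is no check on the main calls. Against the other time points, 124 and 326 became 11 and 109 with all 20 arrays and 10 other time points, and 0 and 21 with time-point means as samples, and the higher count became 77 with scaled arrays. Leaving out 1 array of time point 7 or 1 other time point gave 69 to 134 higher and 225 to 334 lower. A filter for values on 16 or more arrays, centring within blocks, robust moderation and, by ratio, single probes kept all counts within 1.5 times. With the array marked r as a replicate block, 584 and 523 genes were called by ratio and 125 and 320 by difference. The labels do not say that r pairs arrays, and deviations of r arrays did not go together over 21 pairs of time points (median r = -0.047).

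Of 134 called named ratios, 42 lost the call without the first array and 46 without the second, and Npas3 (-0.61) turned to 0.05 without the first and stood at -1.27 without the second. A change of sign where no fit made a call is not counted here. Precision is limited by 2 arrays, and signal over background was not used here.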
